A study of Mus musculus with 15 samples.

Results

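The 35 genes described here make, sense, take up and export cholesterol, and include the pathway that atorvastatin blocks. They were taken as a list by name: every non-control probe of the array whose gene name was on the list was a member, with Msmo1 found under its older name Sc4mol. The list met 66 of 41174 non-control probes, or 35 of 27768 genes and unnamed probes. By role, 7 genes belong to the mevalonate arm of synthesis, 11 to the sterol arm, 6 to sensing and control, 5 to uptake and handling, and 6 to the liver X receptors and efflux pumps. Of the 35, 33 passed the filter on dim probes and were tested, while Npc1l1 and Abcg8 were too dim.

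All RNA was from male Apc+/Min-FCCC mice, a C57BL/6J-background line that carries the Apc Min allele and develops adenomas of the large bowel without a carcinogen. All 4 groups carry this allele. Mice aged 6 to 8 weeks were examined by colonoscopy and classed by whether a tumor was seen. The first group was adenoma from mice given sulindac at 300 ppm together with atorvastatin at 100 ppm in chow for 7 days (4 arrays), called treated adenoma below. The second was adenoma from mice on plain chow (3 arrays), called untreated adenoma. The other groups were colonic epithelium from tumor-bearing mice and colonic epithelium from tumor-free mice, labelled as given atorvastatin at 100 ppm without sulindac (4 arrays each). The study's design text names no atorvastatin-only arm for tumor-bearing mice, and the labels were followed here. Cells were collected by laser microdissection, and 10 ng of RNA went through linear amplification.

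These groups limit what can be asked. Both drugs were given together in adenoma, so neither can be set apart there. No untreated epithelium was analysed here, so the effect of atorvastatin on epithelium could not be tested. Between untreated adenoma and epithelium, tissue and atorvastatin cannot be told apart. Between treated adenoma and epithelium, tissue and sulindac cannot be told apart. Where the epithelium is from tumor-free mice, the tumor status of the mouse cannot be told apart from these either. In dissected tissue, fewer cells of a type and less RNA per cell cannot be told apart either.

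Cells build cholesterol from acetyl units through mevalonate, isoprenoids and squalene, and statins block the enzyme that makes mevalonate. When membrane sterol is low, the escort protein Scap releases the transcription factors Srebf2 and Srebf1, which switch on the synthesis genes, and when sterol is high the Insig proteins hold Scap back. When oxysterols build up, the liver X receptors Nr1h3 and Nr1h2 switch on the pumps Abca1, Abcg1, Abcg5 and Abcg8, as well as Mylip, an enzyme that marks lipoprotein receptors for breakdown. In the intestine, Npc1l1 takes cholesterol up from the lumen and Abcg5 with Abcg8 sends it back.

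The promoters of 4 members are shown, which stand for the mevalonate arm (Hmgcs1 and Mvk), the sterol arm (Dhcr7) and efflux (Abca1). In the fit reported below, Mvk, Dhcr7 and Abca1 passed the test in some comparison and Hmgcs1 in none. Nr1h3, which also passed, is not shown. Each window is the 250 bases before a RefSeq start in GRCm38.p6, written 5′ to 3′ on the gene's strand. Capitals mark the CCAAT box, which reads ATTGG where it lies on the other strand. They also mark the GC box GGGCGG, which reads as its complement on the other strand. The E-box CACGTG is marked as well. So is CACCCCAC, the core of the sterol response element that Srebf proteins bind.
Hmgcs1, chr13:119690101-119690350, plus strand: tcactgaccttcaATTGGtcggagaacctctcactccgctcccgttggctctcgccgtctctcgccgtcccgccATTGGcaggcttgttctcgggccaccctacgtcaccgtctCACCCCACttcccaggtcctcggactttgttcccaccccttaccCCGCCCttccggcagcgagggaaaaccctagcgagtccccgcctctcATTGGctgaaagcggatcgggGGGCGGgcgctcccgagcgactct
Mvk, chr5:114444019-114444268, plus strand: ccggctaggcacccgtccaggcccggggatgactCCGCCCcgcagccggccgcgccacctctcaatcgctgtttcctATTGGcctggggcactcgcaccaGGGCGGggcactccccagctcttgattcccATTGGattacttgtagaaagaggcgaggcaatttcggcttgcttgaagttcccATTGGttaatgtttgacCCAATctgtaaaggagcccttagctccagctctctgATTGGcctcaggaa
Dhcr7, chr7:143829964-143830213, plus strand, the last of its 3 windows: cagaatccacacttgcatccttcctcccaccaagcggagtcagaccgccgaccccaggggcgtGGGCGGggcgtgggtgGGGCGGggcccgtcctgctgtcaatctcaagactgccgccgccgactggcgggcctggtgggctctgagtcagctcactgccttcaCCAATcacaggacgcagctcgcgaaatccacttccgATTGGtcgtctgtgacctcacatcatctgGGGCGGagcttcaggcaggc
Abca1, chr4:53159896-53160145, minus strand: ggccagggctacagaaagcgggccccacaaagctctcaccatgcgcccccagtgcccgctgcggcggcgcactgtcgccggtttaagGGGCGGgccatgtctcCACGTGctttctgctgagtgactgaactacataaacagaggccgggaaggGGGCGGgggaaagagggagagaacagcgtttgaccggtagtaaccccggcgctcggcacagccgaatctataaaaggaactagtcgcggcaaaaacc
In these windows Hmgcs1 holds 3 CCAAT boxes, Mvk 5 and Dhcr7 2, and Abca1 holds none but has a CACGTG between its GC boxes. The other 2 windows of Dhcr7 hold no CCAAT box.

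RefSeq windows were found for 28 members, 7 of them with several starts, and not for Fdps, Fdft1, Sqle, Stard4, Scarb1, Npc1 and Abcg1. On either strand, CCAAT was in the windows of 22 of the 28 (78.6%), against 37.5% of 27025 genes. The GC box GGGCGG was in 21 (75%), against 35.4% of all genes. Where a gene has several windows, a match in any of them counts. All 9 sterol arm genes with a window held both, while 1 of 5 liver X receptor and efflux genes held a CCAAT (Abcg8) and 1 of 5 a GC box (Abca1). CACGTG was in 6 members (21.4%), against 6.86% of all genes. The core CACCCCAC was in the windows of 2 members, Hmgcs1 and Acat2 (7.14%), against 2.98% of all genes. The longer sterol response element, which has the letters AT before this core, was in 0 of the 28 members and in 0.0814% of all genes. Both strands were searched, the longer element contains the core while no other motif contains another, and a match describes letters in a window, not a bound site.

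Levels below are log2 of the processed intensity minus the array's 75th percentile, so 0 is the brightness of a probe at that percentile, and levels of different genes are not compared. Several arrays of one group differed by less than the noise between replicate spots of one array and were averaged, which left 10 samples: 2 treated adenoma, 2 untreated adenoma, 3 epithelium of tumor-bearing mice and 3 epithelium of tumor-free mice. The second treated adenoma sample is the mean of 3 arrays. Array 2 of tumor-bearing epithelium and array 2 of tumor-free epithelium, which carry different labels, were nearly as close (SD of their log2 difference 0.183, spot noise 0.178, r across probes 0.994). Array 4 of tumor-bearing epithelium, the third sample of that group, stood apart, with r of 0.906 to 0.914 to the rest of its group, where other pairs within a group had at least 0.929. Nothing in the labels says that arrays came from separate mice, so p-values measure the spread between these samples, which may be technical. Epithelium markers were well above background on all arrays (9 of 9 genes). Tests are limma's moderated test across all 4 groups, with Benjamini-Hochberg adjustment over all genes tested, and a gene is called at an adjusted p below 0.05.

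**Figure D1:**
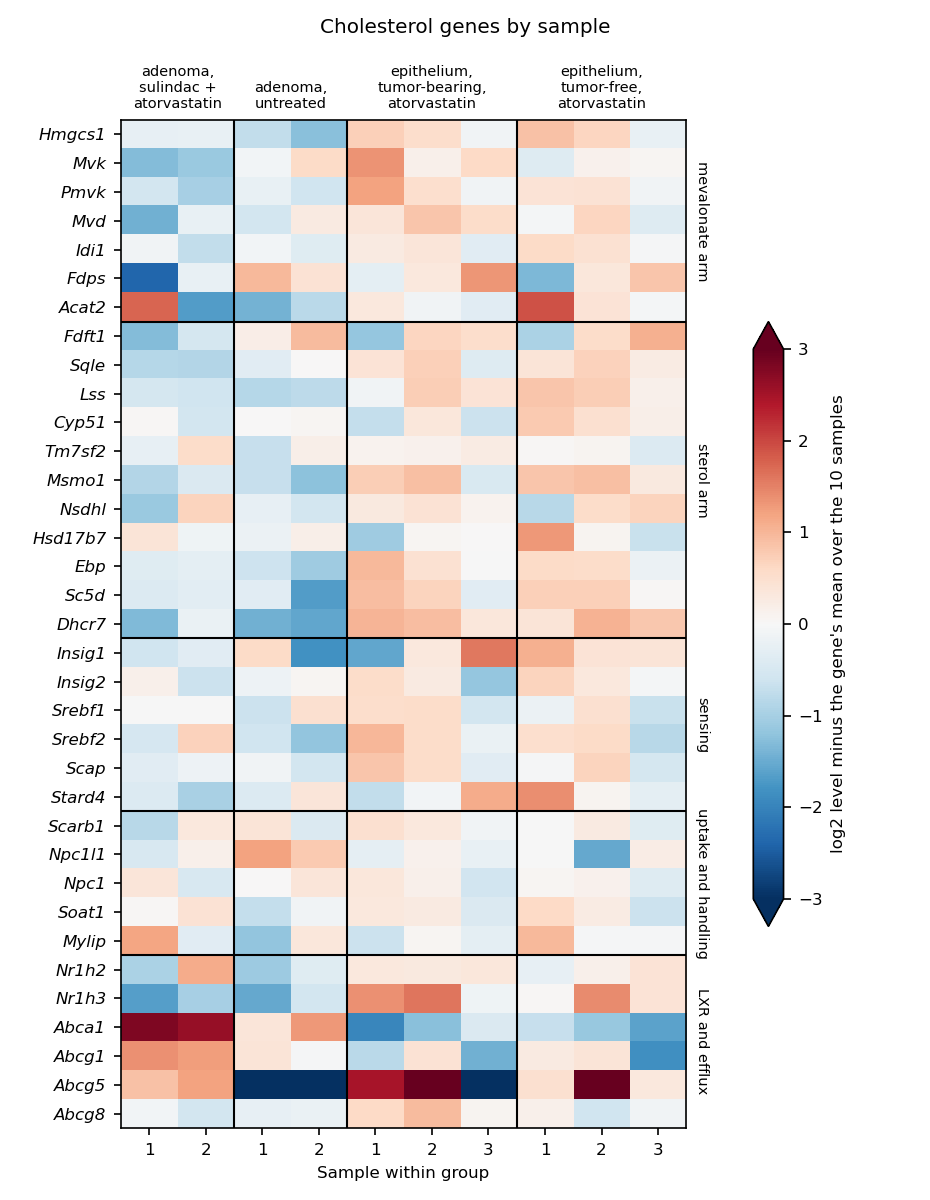
Log2 level of each of the 35 genes in each of the 10 samples, as the difference from the gene's mean over the 10 samples (colour, red higher and blue lower, saturated beyond 3). Columns are samples in the order treated adenoma, untreated adenoma, epithelium of tumor-bearing mice and epithelium of tumor-free mice, and lines separate the roles; the Abca1 row is red in adenoma and blue in epithelium.

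The first comparison asks what 7 days of sulindac with atorvastatin did to these genes in adenoma. No member was called between treated and untreated adenoma (0 of 33), where 0.227% of all 17635 genes were called. At an unadjusted p below 0.05, limma gave 3 of 33 members (9.09%) and 11.8% of all genes. The median log2 difference was 0.14 over the members and 0.05 over all genes, and 39.4% of members were below 0 against 47.7% of all genes. With 2 samples a group, the smallest difference called for any gene was 2.81 on the log2 scale, and the members' median SE was 0.60. Counted as separate samples, the near-identical arrays gave 4 members (Abca1, Abcg5, Mvk and Nr1h2) at a background of 12.7%. With scan date as a block on those separate arrays there were 6 (Abca1, Abcg1, Abcg5, Fdps, Hmgcs1 and Mvk) at a background of 15.6%.

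Among the efflux genes, 3 pumps had treated adenoma above untreated adenoma in every sample. Abca1, which loads cholesterol onto lipid-poor apolipoprotein, had levels of 1.57 and 1.38 in treated adenoma, against -0.85 and 0.08 in untreated adenoma. Both treated samples were above both untreated samples. The log2 difference was 1.86 ± 0.60 (SE; 95% interval 0.53 to 3.19; adjusted p = 0.281 by limma), which did not pass the test. Within the 2 scan dates that hold both groups, with 1 or 2 arrays a side, it was 2.45 and 1.27.

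Abcg1, which moves cholesterol to high-density lipoprotein, had levels of 1.17 and 1.06 in treated adenoma, against 0.20 and -0.24 in untreated adenoma. The groups did not overlap, and the difference of 1.13 ± 0.81 (interval -0.66 to 2.92; adjusted p = 0.627 by limma) did not pass. Abcg5, a partner of the pump that returns sterol to the gut lumen, had levels of 0.21 and 0.54 in treated adenoma, against -5.22 and -3.83 in untreated adenoma. Here too both treated samples were higher, with a difference of 4.90 ± 2.35 (interval -0.32 to 10.1; adjusted p = 0.452 by limma). The SE of Abcg5 was the largest among the members, and 1 of 3 samples of tumor-bearing epithelium and both untreated adenoma samples were low. Its partner Abcg8 stayed too dim to test, at -6.34 and -6.83 in treated adenoma, against -6.52 and -6.47 in untreated adenoma. Nr1h3, the receptor that drives these pumps, had levels of -1.25 and -0.61 in treated adenoma, against -1.13 and -0.15 in untreated adenoma, which overlap (difference -0.29 ± 0.71). Mylip, another liver X receptor target, had 1.495 and -0.02 in treated adenoma, against -0.87 and 0.66 in untreated adenoma, which also overlap (0.84 ± 0.69). Across the 5 tested genes of the receptor and efflux group the median difference was 1.13, and both treated samples were above both untreated samples for 3 of them. Over all genes, both treated samples were above both untreated samples for 26% and below them for 20.8%.

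The mevalonate arm leaned the other way, with 5 of 7 genes below 0 and a median of -0.36, but no gene was called. Mvk, the kinase that uses mevalonate, had levels of -2.93 and -2.73 in treated adenoma, against -1.71 and -1.06 in untreated adenoma. Both treated samples were below both untreated samples, and the difference was -1.44 ± 0.52 (interval -2.59 to -0.29; adjusted p = 0.323 by limma). A second Mvk probe gave -1.56. Fdps, which makes farnesyl diphosphate, had -0.47 and 1.70 in treated adenoma, against 2.88 and 2.35 in untreated adenoma (-2.00 ± 0.89; adjusted p = 0.412 by limma). Hmgcs1, the enzyme just before the step that statins block, went against these, with 5.37 and 5.396 in treated adenoma, against 4.86 and 4.35 in untreated adenoma. Its samples did not overlap either, and the difference of 0.78 ± 0.53 (interval -0.39 to 1.95; adjusted p = 0.603 by limma) did not pass. Idi1, the isomerase that follows, had 4.94 and 4.33 in treated adenoma, against 4.97 and 4.69 in untreated adenoma, with overlap (-0.19 ± 0.48). Both probes named Idi1 are placed on chromosome 2 (mm7), while the RefSeq window of Idi1 is on chromosome 13. Whether these probes measure Idi1 is therefore uncertain. Over the 7 genes, both treated samples were below both untreated samples for 2 (Mvk and Fdps) and above them for 1 (Hmgcs1). The shares over all genes were 20.8% below and 26% above.

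In the sterol arm, which turns farnesyl units into cholesterol, 8 of 11 genes were above 0 with a median of 0.26. Fdft1, squalene synthase, had 1.43 and 2.20 in treated adenoma, against 2.93 and 3.68 in untreated adenoma (-1.49 ± 0.79; adjusted p = 0.502 by limma). Sqle, which opens the way to the sterol ring, had 3.95 and 3.93 in treated adenoma, against 4.48 and 4.83 in untreated adenoma (-0.71 ± 0.49; interval -1.79 to 0.37; adjusted p = 0.610 by limma). For both, the treated samples were the lower ones without overlap. Lss, Ebp and Dhcr7, which act after Sqle, had both treated samples above both untreated ones, by 0.26, 0.52 and 0.74 on the log2 scale. Of the 18 synthesis genes, 4 were lower in treated adenoma without overlap (Mvk, Fdps, Fdft1 and Sqle) and 4 higher (Hmgcs1, Lss, Ebp and Dhcr7). Over all genes 20.8% were lower and 26% higher in this way, so the synthesis genes were near all genes in this respect.

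The sensing genes spread around 0, with a median of 0.08. Srebf2, the main switch of synthesis, had 4.69 and 5.87 in treated adenoma, against 4.57 and 4.00 in untreated adenoma, without overlap (0.99 ± 0.66; adjusted p = 0.598 by limma). A second Srebf2 probe, above background on all 15 arrays, gave -1.003. Srebf1, which leans to fatty acid genes, had 4.40 and 4.42 in treated adenoma, between the 3.77 and 4.92 of untreated adenoma (0.07 ± 0.61). Insig1, a sterol-controlled brake, had -2.78 and -2.52 in treated adenoma, between the -1.60 and -3.99 of untreated adenoma (0.14 ± 0.98), and its other probe gave -1.31. Stard4, a carrier of cholesterol between membranes, had 2.87 and 2.31 in treated adenoma, against 2.87 and 3.64 in untreated adenoma (-0.67 ± 0.72).

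For uptake and handling, Scarb1, a receptor for high-density lipoprotein, had 1.25 and 2.39 in treated adenoma, against 2.46 and 1.65 in untreated adenoma, with overlap (-0.23 ± 0.54). Soat1, which stores cholesterol as esters, had 2.85 and 3.26 in treated adenoma, against 2.11 and 2.72 in untreated adenoma. The Soat1 samples did not overlap on this probe (0.64 ± 0.55; adjusted p = 0.701 by limma), but 2 of its other 3 probes had the other sign (-0.58 and -1.41). Among those 3 is a probe placed on chromosome 7 (mm7), while the reported probe lies on chromosome 1. Whether the chromosome 7 probe measures Soat1 is uncertain. Npc1l1, the gut uptake channel, was not well above background on enough arrays to be tested, at -7.59 and -6.96 in treated adenoma, against -5.89 and -6.31 in untreated adenoma.

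**Figure D2:**
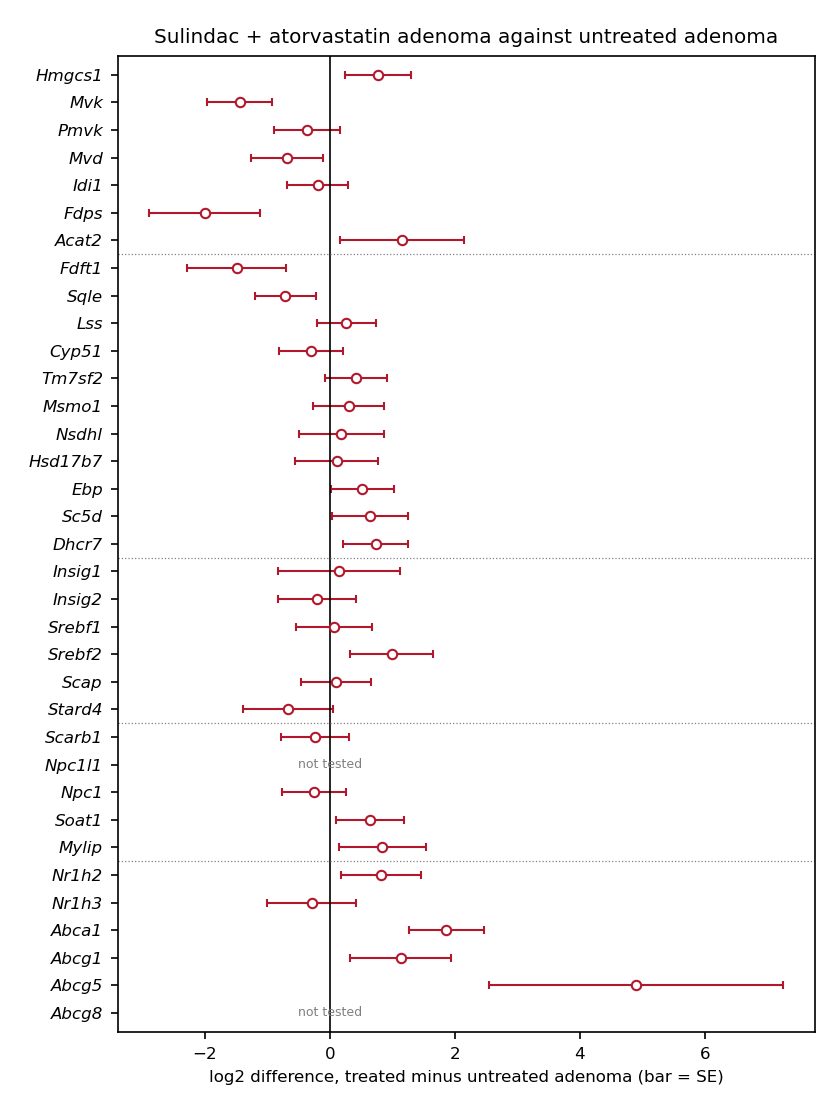
Log2 difference, treated minus untreated adenoma, for each gene, with bars of 1 SE from the limma fit and dotted lines between the roles. All circles are open because no gene was called; Abcg5 lies farthest to the right at 4.90 and Fdps farthest to the left at -2.00.

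Some markers of other cells moved with treatment, and their part in the members' differences was not tested. Among the marker lists Mcpt2, a mast cell protease, fell (not well above background in treated adenoma, at least 7.72-fold lower), and so did Zg16, a goblet cell gene (log2 difference -6.48 ± 1.01; adjusted p = 0.0364 by limma). The summed log2 level of 7 absorptive colonocyte markers ranged from 2.43 to 4.20 in treated adenoma and from 4.68 to 5.04 in untreated adenoma. For 9 macrophage and dendritic markers, cells that also use Abca1 and Abcg1, it ranged from 5.98 to 6.79 in treated adenoma and from 5.96 to 6.17 in untreated adenoma, and 0 of 9 were called. Other lists had no overlap between the adenoma groups in their summed level, with no further gene called. Over all single genes, both treated samples were above both untreated samples for 26% and below them for 20.8%. A lack of overlap alone therefore does not set these lists apart. For 6 enteroendocrine markers it was 5.53 to 6.09 in treated and 1.476 to 2.97 in untreated adenoma. Such a sum follows its brightest genes, and the median log2 difference of the 4 enteroendocrine markers tested was 0.41. For 6 smooth muscle markers the summed level was 4.52 to 4.84 in treated and 3.56 to 3.81 in untreated adenoma. Goblet, mast, B and plasma cell, and small intestinal enterocyte lists were lower in treated adenoma. For 6 goblet markers the summed level was 6.01 to 6.33 in treated and 7.39 to 7.66 in untreated adenoma. For 6 mast cell markers it was -1.64 to -0.60 in treated and 1.44 to 1.80 in untreated adenoma. For 6 B and plasma cell markers it was -0.53 to -0.34 in treated and -0.02 to 0.35 in untreated adenoma. For 7 small intestinal enterocyte markers it was -2.12 to -2.04 in treated and -0.89 to 2.21 in untreated adenoma.

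The second comparison asks whether the epithelium of tumor-bearing mice differed from that of tumor-free mice, both labelled atorvastatin. No scan date or slide held arrays of both groups, so date and tumor status cannot be told apart here. No member was called (0 of 33), nor was any of 17659 genes (0%). At an unadjusted p below 0.05, limma gave 464 genes and no member. The members' median was -0.06, against 0.01 over all genes, and their differences ran from -1.15 (Abcg5) to 0.76 (Mvk). Mvk had -0.29, -1.47 and -1.04 in tumor-bearing epithelium, against -2.01, -1.50 and -1.57 in tumor-free epithelium, all higher without overlap by a narrow margin. Tm7sf2, a sterol reductase, was the other gene without overlap, at 3.56, 3.59 and 3.70 in tumor-bearing epithelium, against 3.51, 3.55 and 3.04 in tumor-free epithelium. The share of all genes without overlap was not counted for this comparison, so the lack of overlap does not set Mvk and Tm7sf2 apart. Abca1 had -3.17, -2.48 and -1.65 in tumor-bearing epithelium, against -1.92, -2.37 and -2.83 in tumor-free epithelium, with a difference of -0.06 ± 0.49. The middle value of each set comes from the pair of arrays that nearly match across the labels.

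The remaining 4 comparisons set adenoma against epithelium. They share samples, so each is given by its own values. In treated adenoma against tumor-bearing epithelium, 3 of 33 members were called (9.09%), with 13.4% of all 17012 genes called. In treated adenoma against tumor-free epithelium, 1 of 33 was called, with 10.3% of all genes called. In untreated adenoma against tumor-bearing epithelium, 2 of 33 were called, with 11.7% of all genes called. In untreated adenoma against tumor-free epithelium, 2 of 33 were called, with 9.84% of all genes called. So the members' shares lay at or below those of all genes. With scan date as a block on separate arrays, 8 members were called in treated and 13 in untreated adenoma against tumor-bearing epithelium, with 32.9% and 40.6% of all genes called. No scan date held both adenoma and tumor-free epithelium, so date and tissue cannot be told apart there.

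The members' differences lay below those of all genes. The median log2 difference of treated adenoma was -0.53 against tumor-bearing epithelium and -0.67 against tumor-free epithelium, where all genes had -0.08 and -0.14. For untreated adenoma it was -0.47 against tumor-bearing and -0.54 against tumor-free epithelium, where all genes had -0.13 and -0.20. Between 72.7% and 75.8% of tested members were below 0 in these comparisons, against 52.6% to 57.4% of all genes. In treated adenoma against tumor-free epithelium, all 7 mevalonate genes and 10 of 11 sterol genes were below 0.

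Per sample the same lean showed in both synthesis arms. The median deviation of the 18 synthesis genes from their mean over the 10 samples was -0.54 and -0.37 in treated adenoma and -0.34 and -0.46 in untreated adenoma. It was 0.34, 0.49 and 0.00 in tumor-bearing epithelium and 0.50, 0.54 and 0.05 in tumor-free epithelium. All 4 adenoma samples were below all 6 epithelium samples, and the third sample of each epithelium group was the lowest of its group. How often the median of as many other genes separates in this way was not counted. Among single genes, every adenoma sample was below every epithelium sample for 10.2% of 18752. These medians restate the differences above in the same samples, and they include Idi1, whose probes are uncertain. The sensing genes overlapped, since the last sample of each epithelium group (-0.27 in tumor-bearing and -0.40 in tumor-free mice) was as low as adenoma, where the range was -0.37 to -0.24.

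**Figure D3:**
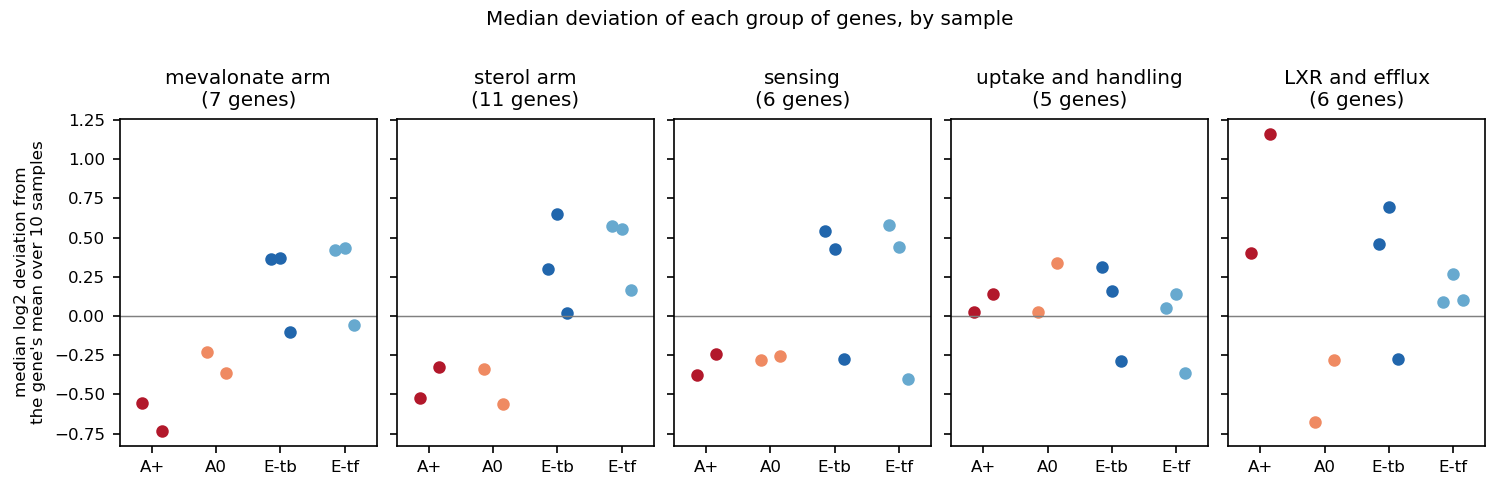
Median over the genes of a role of the log2 level minus each gene's mean over the 10 samples (y axis), for each sample, with a panel per role. A+ is treated adenoma (2 samples), A0 untreated adenoma (2), E-tb epithelium of tumor-bearing mice (3) and E-tf epithelium of tumor-free mice (3); in the mevalonate and sterol panels the adenoma points, from -0.73 to -0.23, lie below all epithelium points.

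Abca1 was the member that rose in adenoma in all 4 of these comparisons. Its levels were 1.57 and 1.38 in treated adenoma and -0.85 and 0.08 in untreated adenoma, against -3.17, -2.48 and -1.65 in tumor-bearing epithelium and -1.92, -2.37 and -2.83 in tumor-free epithelium. Every adenoma sample was above every epithelium sample, and the treated adenoma samples were the highest. All adenoma samples were above all epithelium samples for 7.17% of all genes. Abca1 was 15.04-fold higher in treated adenoma than in tumor-bearing epithelium (log2 difference 3.91 ± 0.55; adjusted p = 0.00124 by limma) and 14.4-fold higher than in tumor-free epithelium (3.85 ± 0.55; adjusted p = 0.0015). It was 4.13-fold higher in untreated adenoma than in tumor-bearing epithelium (2.05 ± 0.55; adjusted p = 0.0374 by limma) and 3.96-fold higher than in tumor-free epithelium (1.99 ± 0.55; adjusted p = 0.0463). The rise in treated adenoma was called under all 31 settings tried against tumor-bearing and all 30 against tumor-free epithelium. The rise in untreated adenoma was called in 12 of 19 settings that left out arrays against tumor-bearing epithelium and in 9 of 19 against tumor-free epithelium. Within scan dates Abca1 differed by 4.68 and 3.09 between treated adenoma and tumor-bearing epithelium, and by 2.03 and 2.23 between untreated adenoma and tumor-bearing epithelium. The last pair of values comes from near-identical arrays of 1 untreated sample, and tumor-bearing arrays 1 and 3, which lie on the different dates, are also 1 sample, so they are not separate replicates. The pair for treated adenoma has 1 array a side on each date. Its second value uses array 4 of tumor-bearing epithelium, which stood apart. The array has a single Abca1 probe, at chr4:53044891-53044950 (mm7, per the files).

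The other pumps did not match it. Abcg1, at 1.17 and 1.06 in treated adenoma and 0.20 and -0.24 in untreated adenoma, had -0.999, 0.23 and -1.63 in tumor-bearing epithelium and 0.07, 0.19 and -2.04 in tumor-free epithelium. Treated adenoma lay above both epithelium groups without overlap and untreated adenoma did not. The differences of treated adenoma were 1.91 ± 0.74 against tumor-bearing epithelium (adjusted p = 0.114 by limma) and 1.71 ± 0.74 against tumor-free epithelium (adjusted p = 0.195), and neither was called.

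Abcg5, at 0.21 and 0.54 in treated adenoma and -5.22 and -3.83 in untreated adenoma, had 1.79, 3.12 and -5.85 in tumor-bearing epithelium and -0.19, 3.07 and -0.37 in tumor-free epithelium. Untreated adenoma lay below tumor-free epithelium without overlap (-5.36 ± 2.15; adjusted p = 0.156 by limma), and the third sample of tumor-bearing epithelium was lower still. Abcg8 was at -6.34 and -6.83 in treated adenoma and -6.52 and -6.47 in untreated adenoma, against -5.67, -5.31 and -6.18 in tumor-bearing epithelium and -6.12, -6.87 and -6.36 in tumor-free epithelium. It was well above background on 0 of 4 treated adenoma arrays and on 1 of 4 tumor-bearing arrays, too few to give a fold.

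Nr1h3, the liver X receptor of macrophages, liver and gut, fell in treated adenoma. Its levels were -1.25 and -0.61 in treated adenoma and -1.13 and -0.15 in untreated adenoma, against 1.77, 2.00 and 0.27 in tumor-bearing epithelium and 0.43, 1.83 and 0.82 in tumor-free epithelium. All adenoma samples were below all epithelium samples. It was 4.85-fold lower in treated adenoma than in tumor-bearing epithelium (-2.28 ± 0.65; adjusted p = 0.0428 by limma). The other 3 differences were -1.99 ± 0.65 in untreated adenoma against tumor-bearing epithelium, -1.95 ± 0.65 in treated and -1.66 ± 0.65 in untreated adenoma against tumor-free epithelium (adjusted p = 0.0739, 0.0896 and 0.144 by limma), and did not pass. So the receptor and its target Abca1 lay on opposite sides, receptor lower and pump higher in every adenoma sample. Within scan dates the difference of treated adenoma from tumor-bearing epithelium was -2.997 and -0.98, with 1 array a side on each date. The second value uses array 4 of tumor-bearing epithelium, which stood apart. The Nr1h3 probe lies at chr2:91034994-91035053 (mm7, per the files). Nr1h2, the receptor of most other tissues, was not called in any of the 4, with differences from -1.05 to -0.02.

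**Figure D4:**
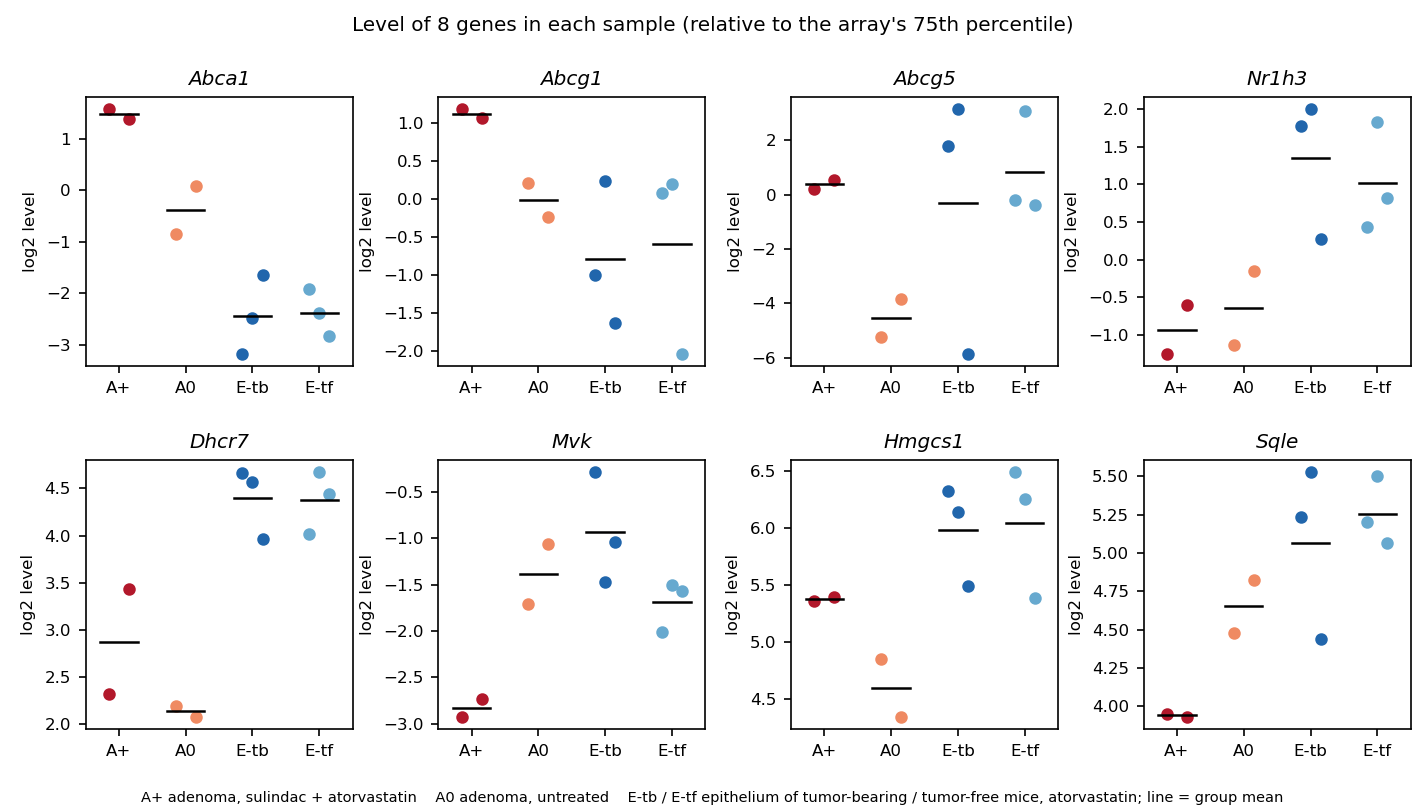
Log2 level, relative to the array's 75th percentile, of 8 genes in each of the 10 samples (points) with the group mean (line). A+ is treated adenoma, A0 untreated adenoma, E-tb and E-tf epithelium of tumor-bearing and tumor-free mice; Abca1 points run from -0.85 to 1.57 in adenoma and from -3.17 to -1.65 in epithelium, with no overlap.

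In synthesis, Dhcr7, the reductase of the last step to cholesterol, fell in untreated adenoma. Its levels were 2.32 and 3.43 in treated adenoma and 2.20 and 2.08 in untreated adenoma, against 4.67, 4.56 and 3.96 in tumor-bearing epithelium and 4.02, 4.67 and 4.44 in tumor-free epithelium. Every adenoma sample was below every epithelium sample. It was 4.79-fold lower in untreated adenoma than in tumor-bearing epithelium (-2.26 ± 0.48; adjusted p = 0.0135 by limma) and 4.72-fold lower than in tumor-free epithelium (-2.24 ± 0.48; adjusted p = 0.0149). In treated adenoma the differences were -1.52 ± 0.48 against tumor-bearing and -1.50 ± 0.48 against tumor-free epithelium (adjusted p = 0.0608 and 0.0772 by limma), which did not pass. Treated and untreated adenoma themselves did not differ by the test (0.74 ± 0.52; adjusted p = 0.624 by limma). Within scan dates untreated adenoma differed from tumor-bearing epithelium by -2.38 and -2.55, again from arrays of the same untreated sample and not from separate replicates. A second Dhcr7 probe gave -0.79 against tumor-bearing and -2.20 against tumor-free epithelium, and was not called. The reported probe lies at chr7:140275628-140275687 (mm7, per the files).

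Mvk fell in treated adenoma. At -2.93 and -2.73 in treated adenoma and -1.71 and -1.06 in untreated adenoma, it had -0.29, -1.47 and -1.04 in tumor-bearing epithelium and -2.01, -1.50 and -1.57 in tumor-free epithelium. The treated adenoma samples were the lowest of all 10, and untreated adenoma overlapped both epithelium groups. Mvk was 3.73-fold lower in treated adenoma than in tumor-bearing epithelium (-1.90 ± 0.47; adjusted p = 0.0249 by limma) and not called against tumor-free epithelium (-1.14 ± 0.47; adjusted p = 0.178). Within scan dates the difference from tumor-bearing epithelium was -2.67 and -1.83, with 1 array a side on each date. The second value uses array 4 of tumor-bearing epithelium, which stood apart. The probe lies at chr5:113674161-113674220 (mm7, per the files).

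Hmgcs1 was at 5.37 and 5.396 in treated adenoma and 4.86 and 4.35 in untreated adenoma, against 6.33, 6.14 and 5.49 in tumor-bearing epithelium and 6.49, 6.26 and 5.39 in tumor-free epithelium. Untreated adenoma lay below both epithelium groups without overlap, by -1.39 ± 0.48 and -1.44 ± 0.48 (adjusted p = 0.0911 and 0.0917 by limma), and treated adenoma reached the lowest tumor-free sample. Another Hmgcs1 probe, above background on 14 arrays, gave 1.57 for untreated and 2.06 for treated adenoma against tumor-bearing epithelium, the other sign. Idi1 was at 4.94 and 4.33 in treated adenoma and 4.97 and 4.69 in untreated adenoma, against 5.33, 5.43 and 4.72 in tumor-bearing epithelium and 5.63, 5.51 and 5.01 in tumor-free epithelium. Both adenoma groups lay below tumor-free epithelium without overlap (-0.75 ± 0.44 treated and -0.56 ± 0.44 untreated), and its second probe gave 2.37 for untreated adenoma against tumor-bearing epithelium. The uncertain placement of the Idi1 probes, given above, limits these values too. Sqle was at 3.95 and 3.93 in treated adenoma and 4.48 and 4.83 in untreated adenoma, against 5.23, 5.52 and 4.44 in tumor-bearing epithelium and 5.20, 5.50 and 5.07 in tumor-free epithelium. Treated adenoma was lower without overlap in both comparisons (-1.12 ± 0.45 and -1.31 ± 0.45; adjusted p = 0.125 and 0.0987 by limma), and neither was called.

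In all, 5 members had every adenoma sample below every epithelium sample (Pmvk, Lss, Ebp, Dhcr7 and Nr1h3), where 10.2% of all 18752 genes did so. Pmvk, the second mevalonate kinase, ranged from 2.95 to 3.71 in adenoma and from 3.83 to 5.15 in epithelium. Lss, which closes the sterol ring, ranged from -0.50 to -0.16 in adenoma and from 0.25 to 1.19 in epithelium. Ebp, a sterol isomerase, ranged from 4.56 to 5.34 in adenoma and from 5.46 to 6.60 in epithelium. None of these 3 was called in any comparison. The other synthesis genes overlapped between tissues.

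Among sensing genes no call was made. Srebf2 was at 4.69 and 5.87 in treated adenoma and 4.57 and 4.00 in untreated adenoma, against 6.18, 5.74 and 4.97 in tumor-bearing epithelium and 5.68, 5.76 and 4.36 in tumor-free epithelium. Untreated adenoma was below tumor-bearing epithelium without overlap (-1.34 ± 0.60; adjusted p = 0.176 by limma) and the other groups overlapped. Srebf1 was at 4.40 and 4.42 in treated adenoma and 3.77 and 4.92 in untreated adenoma, against 4.96, 4.98 and 3.87 in tumor-bearing epithelium and 4.26, 4.90 and 3.76 in tumor-free epithelium, with overlap throughout. Its 4 differences from epithelium lay between -0.26 and 0.11. Insig1 varied widely within groups, at -2.78 and -2.52 in treated adenoma and -1.60 and -3.99 in untreated adenoma, against -3.73, -1.87 and -0.59 in tumor-bearing epithelium and -1.12, -1.77 and -1.80 in tumor-free epithelium. Stard4 was at 2.87 and 2.31 in treated adenoma and 2.87 and 3.64 in untreated adenoma, against 2.55, 3.21 and 4.40 in tumor-bearing epithelium and 4.68, 3.37 and 3.01 in tumor-free epithelium. For Insig1 and Stard4 only treated adenoma against tumor-free epithelium had no overlap (-1.09 ± 0.89 and -1.10 ± 0.66), and neither difference passed.

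Uptake and handling genes had medians from -0.24 to 0.07 over the 4 comparisons, and no call. Scarb1 was at 1.25 and 2.39 in treated adenoma and 2.46 and 1.65 in untreated adenoma, against 2.57, 2.41 and 1.97 in tumor-bearing epithelium and 2.08, 2.35 and 1.73 in tumor-free epithelium. Soat1 was at 2.85 and 3.26 in treated adenoma and 2.11 and 2.72 in untreated adenoma, against 3.14, 3.10 and 2.40 in tumor-bearing epithelium and 3.42, 3.08 and 2.19 in tumor-free epithelium. Mylip was at 1.495 and -0.02 in treated adenoma and -0.87 and 0.66 in untreated adenoma, against -0.33, 0.36 and 0.03 in tumor-bearing epithelium and 1.28, 0.28 and 0.27 in tumor-free epithelium. All 3 overlapped between tissues. Npc1l1 was at -7.59 and -6.96 in treated adenoma and -5.89 and -6.31 in untreated adenoma, against -7.36, -6.97 and -7.33 in tumor-bearing epithelium and -7.10, -8.63 and -6.89 in tumor-free epithelium. Both untreated adenoma samples were above all epithelium samples, but the gene was well above background on 2 of 3 untreated arrays only, and no fold is given.

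**Figure D5:**
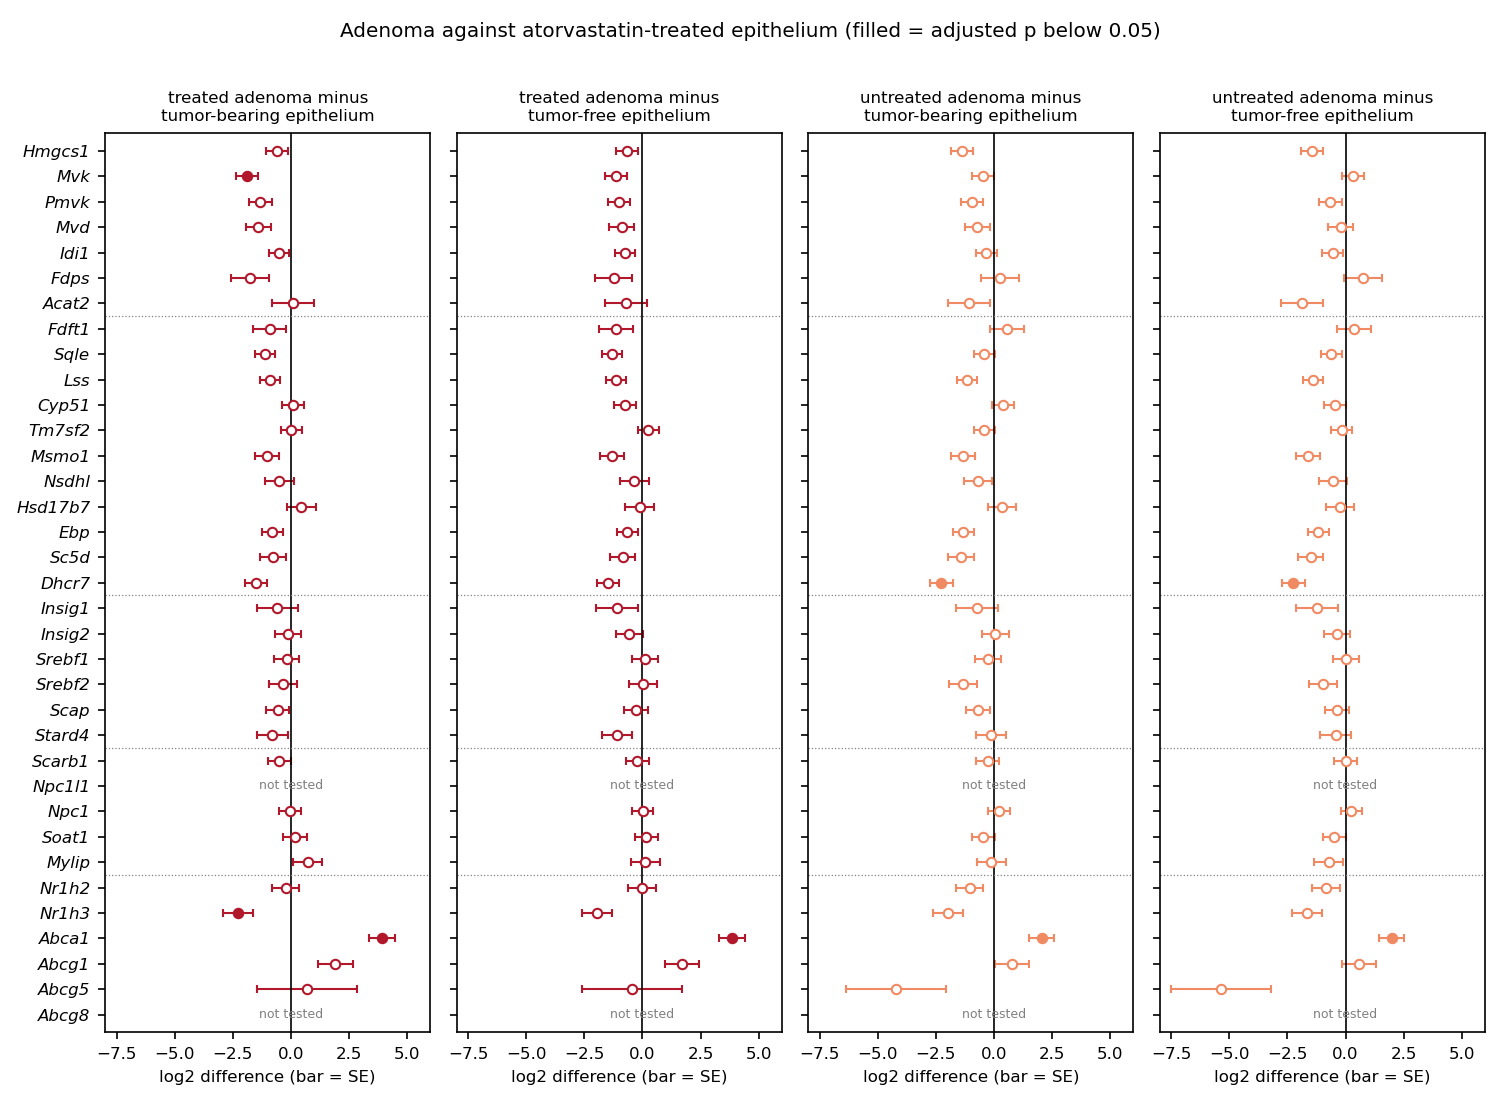
Log2 difference of adenoma minus epithelium for each gene (circle) with bars of 1 SE, in a panel for each of the 4 comparisons. Filled circles are called at an adjusted p below 0.05: Mvk, Nr1h3 and Abca1 in the first panel, Abca1 in the second, and Dhcr7 and Abca1 in the third and in the fourth.

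The number of calls depended on single arrays. Without array 4 of tumor-bearing epithelium, the calls became 7 and 3 in treated adenoma (against tumor-bearing and tumor-free epithelium) and 8 and 4 in untreated adenoma, with 21% and 13.8% of all genes called against tumor-bearing and tumor-free epithelium in each case. The added genes were mainly of synthesis, such as Msmo1, Sqle, Pmvk, Ebp, Hmgcs1 and Sc5d, all lower in adenoma. Against tumor-bearing epithelium, treated adenoma kept 1 call (Abca1) without its array 1, without its arrays 2 to 4, or without arrays 1 and 3 of the epithelium. Untreated adenoma had 0 calls against either epithelium without its array 3 or without its arrays 1 and 2. Against tumor-bearing epithelium it had 1 call (Dhcr7) without treated array 1, treated arrays 2 to 4, array 2 of either epithelium, or arrays 1 and 3 of tumor-bearing epithelium. Against tumor-free epithelium it had 0 calls without array 2 of that epithelium. There it had 1 call without its own array 1, treated array 1, treated arrays 2 to 4, array 1 or arrays 3 and 4 of tumor-free epithelium, or array 2 or 3 of tumor-bearing epithelium. With the nearly matching pair across the epithelium labels left out, 2 members (Abca1 and Mvk) and 1 member (Abca1) were called in treated adenoma and 0 in untreated adenoma. In that setting 9.26%, 6.47%, 7.1% and 5.69% of all genes were called.

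Other cell markers differed between the tissues, and their part in the members' differences was not tested. The summed log2 level of 7 absorptive colonocyte markers was 2.43 to 4.20 in treated adenoma and 4.68 to 5.04 in untreated adenoma, against 6.96 to 8.55 in tumor-bearing and 8.05 to 8.51 in tumor-free epithelium. For 8 Wnt targets of adenoma it was 7.53 to 8.06 in treated and 7.44 to 7.68 in untreated adenoma, against 4.67 to 4.84 in tumor-bearing and 3.97 to 4.89 in tumor-free epithelium. For 9 macrophage and dendritic markers it was 5.98 to 6.79 in treated and 5.96 to 6.17 in untreated adenoma, against 5.15 to 6.31 in tumor-bearing and 4.71 to 5.72 in tumor-free epithelium. None of these 9 was called, and all 9 were above background on all arrays. Counts of other markers called lower follow, against tumor-bearing and then tumor-free epithelium. Of all genes, 13.4% and 10.3% were called in treated and 11.7% and 9.84% in untreated adenoma, higher and lower together. Enteroendocrine markers gave 4 and 4 of 5 in treated and 5 and 5 of 5 in untreated adenoma. Goblet markers gave 5 and 4 of 6 in treated and 2 and 2 of 6 in untreated adenoma. B and plasma cell markers gave 3 and 3 of 4 in treated and 2 and 2 of 4 in untreated adenoma, with a summed level of -0.53 to -0.34 in treated and -0.02 to 0.35 in untreated adenoma, against 4.61 to 5.6002 in tumor-bearing and 4.52 to 5.16 in tumor-free epithelium. Smooth muscle markers gave 1 and 1 of 5 in treated and 4 and 2 of 6 in untreated adenoma, and red blood cell markers 3 and 0 of 3 in treated and 2 and 0 of 3 in untreated adenoma. Small intestinal enterocyte markers gave 2 and 1 of 4 in treated and 2 and 0 of 5 in untreated adenoma, and hepatocyte markers 0 and 0 of 3 in treated and 0 and 1 of 3 in untreated adenoma. General epithelium markers gave 2 and 2 of 9 in treated and 0 and 0 of 9 in untreated adenoma. Of the mast cell markers, 1 and 1 of 3 were lower in treated adenoma and 2 and 2 of 5 higher in untreated adenoma. No fibroblast or endothelium marker was called in these comparisons.

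The neighbouring branches of the same pathway are given by their counts, with no test of a list. Of 20 SREBP-linked fatty acid genes, 0 were called between treated and untreated adenoma, 2 rose and 2 fell in treated adenoma against tumor-bearing epithelium, and 1 rose and 3 of 19 tested fell in untreated adenoma. Against tumor-free epithelium, 1 rose and 1 fell in treated adenoma, and 1 rose and 2 fell in untreated adenoma. These are 4 of 20 and 2 of 20 in treated adenoma, where 13.4% and 10.3% of all genes were called, and 4 of 19 and 3 of 20 in untreated adenoma, where 11.7% and 9.84% were. Acss2, which makes acetyl-CoA from acetate and is a known Srebf target, fell in all 4, with log2 differences of -4.09 and -4.01 in treated adenoma and -3.01 and -2.94 in untreated adenoma (adjusted p from 0.000646 to 0.00542 by limma). Acacb, an acetyl-CoA carboxylase, fell too against tumor-bearing epithelium, with -3.75 in treated and -2.77 in untreated adenoma. In the other direction Pnpla3, a lipid droplet enzyme, rose by 4.05 and 4.57 in treated adenoma, and Me1, which makes NADPH for lipid synthesis, rose by 3.31 and 3.66 in untreated adenoma. Of 18 genes of the isoprenoid branch and protein prenylation, 17 were tested and 0 were called between treated and untreated adenoma. Pdss1, which builds the side chain of ubiquinone, fell in treated adenoma (-1.78 against tumor-bearing and -1.85 against tumor-free epithelium), and Rabggtb, a subunit of a prenyl transferase, rose by 2.15 in untreated adenoma against tumor-bearing epithelium.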

How the data were processed

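RNA from laser-dissected tissue was hybridised to 15 Agilent mouse arrays in 1 colour. Per the file headers, the deposited intensity values are the processed signal of Agilent Feature Extraction 9.5.3, background-subtracted within each array and not normalized between arrays. The authors' deposited value table holds log2 values that look quantile-normalized, and served only as an alternative. Its columns for tumor-bearing epithelium matched the scanner files of that group in reverse order, and were set beside the files they matched.

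Here the intensity was log2-transformed and the 75th percentile of each array over non-control probes was subtracted. Control spots and outlier spots were removed, spots of a probe averaged, and the probe with the highest mean over all arrays kept per gene, named through RefSeq. Arrays of a group closer than the spot noise were averaged, leaving 10 samples. For each comparison, the filter kept a gene if all arrays of either compared group had it well above background. At least 2 arrays per group also needed a usable spot. The genes tested therefore differ between comparisons. All 4 groups were fitted with limma 3.58.1 in R 4.3.3 (lmFit, eBayes, two-sided, Benjamini-Hochberg over all genes tested, threshold 0.05), after the steps were tested on simulated data. The number of arrays, not depth, limits the precision: an array had 56.5% to 75.5% of its probes well above background. Full values are given for members called in any comparison and for a set list of pathway genes, and the others by range. The members and all gene lists were chosen with earlier results of these data known. Promoter windows are from RefSeq for GRCm38.p6, and probe positions are those of the files (mm7). Alternatives covered background correction, normalization, filters, probes, batches, blocks and single arrays.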

Additional observations from a re-analysis of the deposited data

How the results depend on the processing

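No called difference of a single member changed sign under any alternative. The counts that follow take each difference once per setting, for members called in any comparison and the set list of pathway genes. Under settings other than leaving out arrays, 89 values of differences not called became called. Another 891 stayed within the SE and 31 moved further without a call. On leaving out arrays these were 8, 1623 and 35. For the called differences, 15 values lost the call and 78 kept it under other settings. On leaving out arrays 32 lost it and 120 kept it.
The 6 counts of members called are 0 in treated against untreated adenoma, 0 between the epithelium groups, 3 and 1 in treated adenoma against tumor-bearing and tumor-free epithelium, and 2 and 2 in untreated adenoma. The epithelium comparison gave 0 under every setting run. Leaving out arrays gave 0 in treated against untreated adenoma, 1 to 7 and 1 to 3 in treated adenoma against tumor-bearing and tumor-free epithelium, and 0 to 8 and 0 to 4 in untreated adenoma. A lone sample was then assumed to vary like the other groups. Counts for other settings are in the order treated adenoma against tumor-bearing and tumor-free epithelium, then untreated adenoma against the same. In that order the fit reported above called 13.4%, 10.3%, 11.7% and 9.84% of all genes. The share of all genes called changed with the setting, so these counts alone do not set the members apart. Normexp background correction gave 4, 3, 3 and 5 members while the authors' deposited values gave 3, 3, 3 and 5. Quantile normalization gave 3, 1, 2 and 3. With no filter on dim probes there were 2, 1, 1 and 1, with the mean of all probes 3, 2, 1 and 1, and with only the 2 groups in the fit 1, 1, 1 and 3. With the pair that nearly matches across labels left out there were 2, 1, 0 and 0. RNA as a random block gave 7, 5, 8 and 6. These settings gave 0 in treated against untreated adenoma. Settings that count near-identical arrays as separate samples called more of all genes too: each array as a sample gave 12, 11, 11 and 9 (and 4 in treated against untreated adenoma), and slide as a random block 10, 9, 12 and 9 (and 3). Scan date as a fixed block gave 8 in treated and 13 in untreated adenoma against tumor-bearing epithelium and 6 in treated against untreated adenoma, and could not be fitted for comparisons with tumor-free epithelium.
The replicate block on separate arrays gave 13, 10, 12 and 10 (and 5 in treated against untreated adenoma). Same-numbered arrays had correlations of deviations from -0.246 to 0.387, and in no comparison were all above 0.1, so the numbers do not pair samples. With 2 or 3 samples a group, the smallest difference called between tissues was 1.33 on the log2 scale.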

Other observations

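Of 13 genes of bile acid and oxysterol handling, listed beside the members, 9 were tested between treated and untreated adenoma and 0 were called. Against tumor-bearing and tumor-free epithelium, 4 of 9 and 3 of 11 tested were called in treated adenoma, where 13.4% and 10.3% of all genes were called. In untreated adenoma 2 of 8 and 2 of 10 were called, where 11.7% and 9.84% of all genes were called. Slc51b, a subunit of the basolateral bile acid exporter, fell, with log2 differences of -6.96 in treated and -5.63 in untreated adenoma against each epithelium. Nr1h4, the bile acid receptor, fell too, with -5.28 and -5.03 in treated adenoma and -3.85 and -3.59 in untreated adenoma against tumor-bearing and tumor-free epithelium (adjusted p from 0.000264 to 0.00317 by limma). Ch25h, which makes an oxysterol, rose by 2.59 and 2.05 in treated adenoma (adjusted p = 0.0153 and 0.0497 by limma) and was not called in untreated adenoma. Abcb11, a bile salt export pump, fell in treated adenoma against tumor-bearing epithelium (-3.03; adjusted p = 0.0279 by limma).

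Of 27 genes of endosomal and lipid transfer, 25 were tested between treated and untreated adenoma and 0 were called. Against tumor-bearing and tumor-free epithelium, 1 of 24 and 2 of 25 tested were called in treated adenoma, where 13.4% and 10.3% of all genes were called. In untreated adenoma 4 of 25 and 4 of 25 were called, where 11.7% and 9.84% of all genes were called. Apob, the protein of lipoprotein particles, was not well above background on any treated adenoma array and was at least 57.6-fold lower there than in tumor-bearing epithelium and at least 59.9-fold lower than in tumor-free epithelium. In untreated adenoma it fell, with log2 differences of -4.19 and -4.25. Cd36, a fatty acid carrier, fell in untreated adenoma (-2.89 and -3.67), as did Osbpl2, a relative of the oxysterol-binding protein (-1.78 and -2.11). Lrp8, a lipoprotein receptor family member, rose by 2.62 and 3.298 in untreated adenoma, and by 1.90 in treated adenoma against tumor-free epithelium.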
